A study of Mus musculus with 59 samples.

Results

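Cultured microglia of the mouse, which are macrophages that live in brain tissue, were followed here through 9 genes that the cytokine interleukin-4 (IL4) is known to induce in macrophages: Retnla, Chil3, Mgl2, Tmem26, Postn, Ccl17, Ccl22, Ccl24 and Klf4. They were taken by name and are 9 of the 32070 genes in each of the deposited tables of TPM, a measure of transcript share that corrects for gene length. The cultures came from newborn pups, P0 or P1, of a conditional Tbk1 allele, and the RNA was sequenced after 24 h of treatment begun 16 h after plating. Of 59 libraries in 12 groups, 44 (IL4, LPS and untreated) shared one table and 15 (pIC) formed another.

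KO cultures carried Tbk1 fl/fl with Cx3CR1-Cre+, HET cultures Tbk1 fl/+ with Cx3CR1-Cre+, and WT cultures Tbk1 fl/fl with Cx3CR1-Cre-. The Cre recombinase is driven by Cx3cr1, which microglia and other cells of the myeloid lineage express. KO and HET therefore both carry Cre, while a difference from WT also holds Cre itself, and these cannot be told apart. Treatments were IL4 at 20 ng/mL, lipopolysaccharide (LPS, an endotoxin of bacteria) at 100 ng/mL, poly(I:C) (pIC, which stands in for viral double-stranded RNA) at an unstated dose, or medium alone (UT). Each group had 5 libraries except untreated WT, which had 4 (its replicate 5 was not analysed here), and the series describes the replicates as independent cultures.

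IL4 binds a receptor of Il4ra with Il2rg or Il13ra1, and Janus kinases on that receptor phosphorylate the transcription factor Stat6, which binds DNA at paired half-sites of the TTC and GAA type. In macrophages this sets up alternative activation, a state known from parasite infection, allergy and tissue repair, in which secreted lectin-like proteins, surface lectins, matrix proteins and chemokines for T cells and eosinophils are made. LPS and double-stranded RNA act through Toll-like and related receptors on NF-kB and interferon pathways, in which the kinase Tbk1 takes part.

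The member genes lie on 7 chromosomes (GRCm38, GENCODE records). Retnla is at chr16:48842551-48844461, Chil3 at chr3:106147554-106167564, Postn at chr3:54361109-54391037, Mgl2 at chr11:70130329-70137550, Tmem26 at chr10:68723646-68782650, Ccl24 at chr5:135569937-135573049 and Klf4 at chr4:55527143-55532466. Ccl22 (chr8:94745590-94751699) and Ccl17 (chr8:94810453-94812036) are neighbours on the plus strand, 58.8 kb apart with Cx3cl1 between them. RefSeq promoter windows of GRCm38.p6, from 250 bases before to 50 after the start, were matched for 8 of the 9 members. The Stat6-type motif TTCNNNNGAA, which reads the same on both strands, is in the windows of 3 of these 8, against 2284 of 32851 windows of all genes (6.95%). They are shown because Retnla and Tmem26 had the largest differences with IL4 of the 9 members, whereas Ccl17 was not called with IL4 in any genotype. Capitals mark the motif, and all windows are on the plus strand, chr16:48842359-48842658 for Retnla, chr10:68723496-68723795 for Tmem26 and chr8:94810203-94810502 for Ccl17.
Retnla: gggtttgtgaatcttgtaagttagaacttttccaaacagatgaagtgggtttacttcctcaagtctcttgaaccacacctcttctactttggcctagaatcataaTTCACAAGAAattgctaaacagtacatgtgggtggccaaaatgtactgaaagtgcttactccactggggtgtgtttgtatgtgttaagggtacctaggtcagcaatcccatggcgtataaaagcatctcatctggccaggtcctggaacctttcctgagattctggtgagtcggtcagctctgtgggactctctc
Tmem26: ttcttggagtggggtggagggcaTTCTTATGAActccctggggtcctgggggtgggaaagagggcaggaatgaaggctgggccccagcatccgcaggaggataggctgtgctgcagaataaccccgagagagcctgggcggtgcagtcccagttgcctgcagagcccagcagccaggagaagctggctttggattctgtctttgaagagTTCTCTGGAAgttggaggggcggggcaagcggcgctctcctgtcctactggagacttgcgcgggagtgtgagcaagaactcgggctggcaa
Ccl17: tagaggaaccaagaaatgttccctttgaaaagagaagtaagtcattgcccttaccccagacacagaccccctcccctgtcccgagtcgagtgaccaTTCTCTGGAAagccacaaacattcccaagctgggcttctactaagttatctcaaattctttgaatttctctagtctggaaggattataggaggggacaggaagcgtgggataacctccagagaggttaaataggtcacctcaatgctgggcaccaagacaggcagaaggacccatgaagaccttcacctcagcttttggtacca
The match in Retnla, TTCACAAGAA, begins at -145 from the start. Tmem26 has a match at -227 (TTCTTATGAA) and another at -41 (TTCTCTGGAA), and Ccl17 has the letters TTCTCTGGAA too, at -154. The motif with a spacer 1 base shorter, TTCNNNGAA, is in the windows of Chil3 (at -172) and Ccl17 (at -99) and in 8.3% of all windows, and it overlaps none of the matches above. An NF-kB-type motif, GGGNNTTTCC, searched on both strands, is in 0 of the 8 members and in 1.63% of all windows. A match is a description of letters, not of a bound site.

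The libraries held 12428 to 14581 genes with at least 1 TPM, and the read depth is unknown because TPM keeps none. Tbk1 averaged 15.6 to 23.8 TPM in the KO groups, 31.0 to 60.5 in HET and 44.0 to 90.9 in WT, and it was lower in KO than in WT in every treatment. The summed level of 10 microglial markers was 5244 to 5816 TPM in KO and 4951 to 6022 TPM in WT with IL4, against 5577 to 6591 TPM in untreated KO and 5548 to 6199 TPM in untreated WT. With LPS that sum was 1215 to 1816 TPM in KO and 969 to 1203 TPM in WT. Other brain cells were present too. With IL4, 6 markers of the oligodendrocyte lineage summed to 341 to 1257 TPM in KO and 500 to 1692 TPM in WT. Untreated, they summed to 430 to 1477 TPM in KO and 781 to 1934 TPM in WT. Between IL4 and untreated cells 0 of the 6 were called (limma, without pairing), with 0 at an unadjusted p under 0.05. Between same-numbered libraries of a genotype, however, the sum was lower with IL4 every time. KO replicate 1 had 833 TPM with IL4 against 1002 TPM untreated, and WT replicate 1 had 1692 against 1934 TPM. The sum of 8 markers of border macrophages was higher with IL4, at 529 to 746 TPM in KO, 609 to 715 TPM in HET and 585 to 664 TPM in WT, against 353 to 518, 349 to 548 and 372 to 510 TPM untreated. Of the 6 tested, 3 were higher with IL4 in each genotype, Mrc1, Ms4a7 and Cbr2, and 0 were lower. Cd163 and Lyve1 of the same list did not exceed 0.37 and 0.804 TPM with IL4. Their part in the members' IL4 differences was not tested. With LPS the median of all tested genes also shifted, by -0.44 in KO, -0.51 in HET and -0.59 in WT on the log2(TPM + 1) scale, so LPS differences are read against that shift. Differences below are of log2(TPM + 1), given ± SE, with adjusted p-values from limma over all genes tested and called under 0.05.

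With IL4, 7 of the 9 members were higher than in untreated cells in every genotype, among them the secreted protein Retnla, the surface lectin Mgl2, the membrane protein Tmem26, the matrix protein Postn, the chemokine Ccl24 and the transcription factor Klf4. The 2 that were not called are the neighbouring chemokine genes Ccl22 and Ccl17. Of all 15908 genes tested, 5.38% were higher with IL4 in KO, 3.97% in HET and 3.68% in WT. Higher genes made up 64.0%, 56.2% and 58.3% of the calls, and 68.9%, 66.3% and 75.7% with median-of-ratios scaling. The members' median difference was 2.75 in KO, 3.27 in HET and 2.37 in WT, and the median of all genes was -0.06, -0.08 and -0.11. In 8 members (all but Ccl17) every IL4 library was above every untreated one in each genotype, as they were for 5.34% of all tested genes in KO, 4.48% in HET and 4.51% in WT. All 9 members passed the filter on low values in this table. Retnla, Chil3 and Mgl2 did so only through their IL4 libraries, Tmem26 and Postn mainly through them, and Ccl17 mainly through LPS. These counts, and the p-values of those genes with IL4 below, therefore describe the members and support nothing further.

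**Figure D1:**
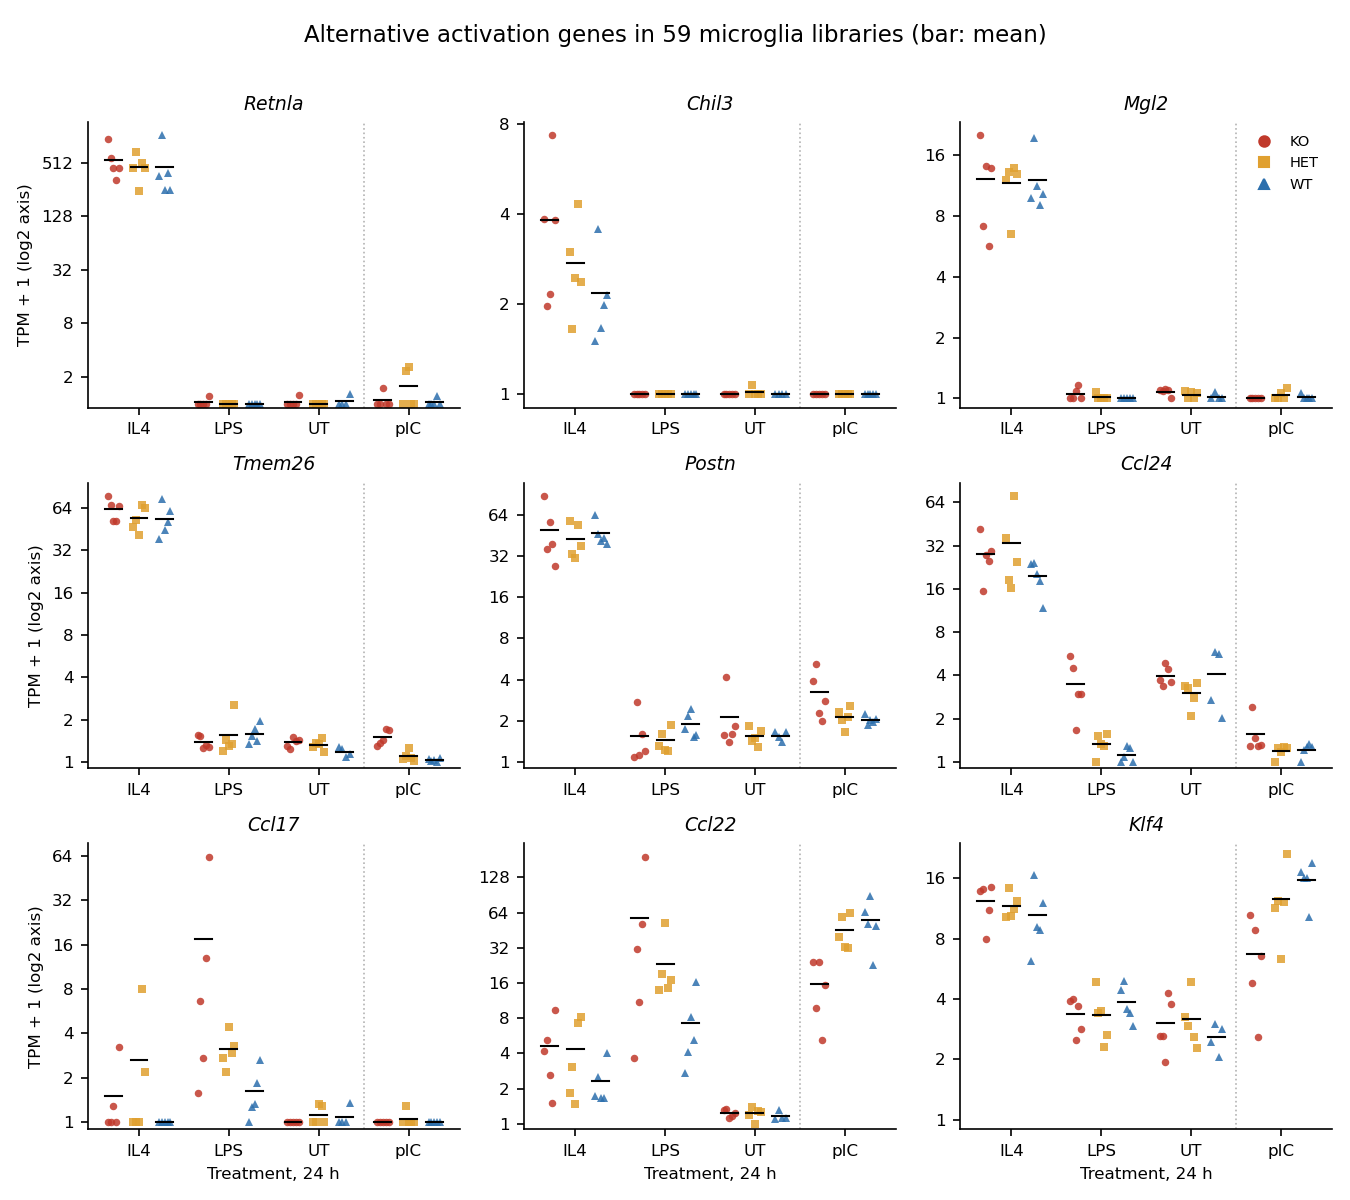
TPM + 1 on a log2 axis for each of the 9 genes, 1 point per library, by treatment (IL4, LPS, UT and, right of the dotted line, the separate pIC table) and within each treatment by genotype (KO, HET, WT), with a bar at the group mean. Retnla lies between 244 and 1046 TPM with IL4 in all 3 genotypes and at or below 0.276 TPM in the LPS and untreated libraries, while Ccl22 is highest with LPS and pIC.

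Retnla, a secreted resistin-like protein made by alternatively activated macrophages, had the largest difference of the members. Its IL4 libraries held 963, 577, 444, 328 and 447 TPM in KO (replicates 1 to 5), 454, 672, 244, 512 and 449 TPM in HET, and 363, 1046, 256, 398 and 252 TPM in WT. In contrast, no LPS or untreated library was above 0.276 TPM, and all HET libraries of those treatments were listed at 0. The genotypes overlapped fully, and the highest value of all was WT replicate 2. The difference was 8.95 ± 0.24 in KO (adjusted p = 1.38e-27), 8.79 ± 0.24 in HET and 8.55 ± 0.26 in WT. In bulk RNA, more cells that make a transcript and more transcript per cell cannot be told apart, here or below.

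Chil3 (Ym1), a secreted chitinase-like lectin, was scarce. With IL4 it had 2.85, 0.973, 1.17, 6.37 and 2.81 TPM in KO, 1.99, 0.654, 1.45, 3.31 and 1.37 TPM in HET, and 0.502, 2.57, 0.659, 0.987 and 1.14 TPM in WT. It was listed at 0 in every LPS, pIC and untreated library except 1 untreated HET library (0.07 TPM), so no fold is given. The log2(TPM + 1) difference was 1.77 ± 0.22 in KO, 1.37 ± 0.22 in HET and 1.05 ± 0.23 in WT (adjusted p = 0.00248). Both genes are textbook markers of this state, and in mean TPM Chil3 stayed far below Retnla in the same IL4 libraries, at 2.83 against 552 in KO, 1.76 against 466 in HET and 1.17 against 463 in WT. The coding sequence of the neighbouring Chil4 is 95.3% identical to that of Chil3, and how the counting treated reads that match both is unknown. Chil4 did not exceed 0.363 TPM in any library, which does not show whether such reads were lost to Chil3.

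Mgl2 (CD301b), a galactose-binding surface lectin, had 19.1, 6.18, 13.2, 4.70 and 12.8 TPM with IL4 in KO, 11.1, 12.3, 5.52, 12.8 and 11.9 TPM in HET, and 8.82, 18.5, 10.3, 8.11 and 9.24 TPM in WT. No library of another treatment was above 0.166 TPM. The difference from untreated cells was 3.35 ± 0.21 in KO, 3.44 ± 0.21 in HET and 3.50 ± 0.22 in WT. Its neighbour and near copy Clec10a (CD301a), 90.4% identical over the aligned coding sequence, was higher with IL4 as well, at 2.61 TPM in KO, 2.54 TPM in HET and 2.43 TPM in WT, against 0.608, 0.196 and 0.388 TPM untreated. Its differences were 1.14 ± 0.22, 1.55 ± 0.22 and 1.26 ± 0.23, and how the counting divided reads between the pair is unknown.

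Tmem26, a membrane protein also used as a surface marker of beige fat cells, had the second largest difference and the smallest SE of the members. It had 77.1, 66.7, 50.5, 51.0 and 65.7 TPM with IL4 in KO, 46.3, 52.0, 39.9, 66.3 and 63.4 TPM in HET, and 37.4, 73.9, 43.4, 50.2 and 59.8 TPM in WT, against 0.079 to 0.499 TPM in all untreated libraries. The difference was 5.50 ± 0.17 in KO, 5.34 ± 0.17 in HET and 5.47 ± 0.18 in WT.

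Postn (periostin), a secreted matrix protein that IL4 and its relative IL13 also induce in epithelial cells and fibroblasts, reached a similar level. Its IL4 libraries had 87.0, 35.0, 55.7, 38.3 and 26.1 TPM in KO, 56.9, 32.1, 30.0, 53.3 and 36.9 TPM in HET, and 62.9, 45.4, 40.5, 42.5 and 38.0 TPM in WT, against 0.298 to 3.20 TPM in all untreated libraries. The difference was 4.55 ± 0.26 in KO, 4.75 ± 0.26 in HET and 4.89 ± 0.28 in WT. Because fibroblasts are a known source of periostin, 9 markers of fibroblasts and vascular cells were summed. They came to 51.4 to 157 TPM with IL4 and 53.8 to 168 TPM untreated in KO, and to 53.7 to 175 TPM with IL4 and 95.1 to 204 TPM untreated in WT. The sums overlapped between the treatments, and of the 8 tested markers 1, Pecam1, was called, as higher with IL4 in each genotype (1.71 in KO and 1.64 in WT). The part of these cells in the Postn difference was not tested, and summed markers do not show which cells made Postn.

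Klf4, a transcription factor that acts with Stat6 in alternative activation of mouse macrophages, had, with Ccl24, the highest mean untreated level of the members in each genotype. With IL4 it had 12.9, 13.2, 6.98, 10.1 and 13.5 TPM in KO, 9.23, 13.2, 9.31, 10.2 and 11.4 TPM in HET, and 5.19, 15.5, 8.17, 7.79 and 11.0 TPM in WT. Untreated cells had 1.61, 1.63, 0.932, 3.29 and 2.78 TPM in KO, 2.24, 1.95, 3.89, 1.58 and 1.28 TPM in HET, and 1.44, 2.02, 1.06 and 1.85 TPM in WT. The treatments did not overlap in any genotype, and the difference was 2.04 ± 0.23 in KO, 1.91 ± 0.23 in HET and 1.96 ± 0.25 in WT.

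The 3 chemokine genes parted ways. Ccl24 (eotaxin-2), which attracts eosinophils through Ccr3, was higher with IL4, with 41.1, 14.5, 26.4, 24.2 and 28.5 TPM in KO, 35.1, 17.4, 15.3, 70.0 and 23.5 TPM in HET, and 22.7, 23.4, 19.2, 17.1 and 10.8 TPM in WT. Untreated cells had 2.69, 2.37, 3.89, 3.43 and 2.57 TPM in KO, 2.38, 2.27, 1.08, 1.76 and 2.53 TPM in HET, and 1.70, 4.84, 4.66 and 1.03 TPM in WT. The difference was 2.75 ± 0.31 in KO, 3.27 ± 0.31 in HET and 2.37 ± 0.33 in WT, with no overlap.

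Ccl22, a ligand of Ccr4 on T cells, was above the untreated range in every IL4 library but was not called in any genotype. It had 3.22, 4.23, 1.61, 0.498 and 8.38 TPM with IL4 in KO, 0.848, 2.05, 0.468, 6.28 and 7.12 TPM in HET, and 0.719, 1.52, 0.650, 0.658 and 3.01 TPM in WT, against 0 to 0.379 TPM in all untreated libraries. The difference was 1.63 ± 0.61 in KO (adjusted p = 0.0992), 1.5 ± 0.61 in HET (adjusted p = 0.151) and 0.90 ± 0.65 in WT (adjusted p = 0.456). In KO it was called once same-numbered cultures were blocked within each genotype (adjusted p = 0.0466), and in a fit of only the groups compared (adjusted p = 0.0362). With a pseudocount of 0.1 in place of 1 it was called in KO (3.00, adjusted p = 0.00836) and HET (2.95, adjusted p = 0.0109).

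Ccl17, the second Ccr4 ligand, was listed at 0 in all 5 WT libraries with IL4. In KO it had 0.289 and 2.25 TPM in replicates 3 and 5 and was listed at 0 in the others, and in HET it had 7.06 and 1.18 TPM in replicates 4 and 5 and was listed at 0 in the others. The difference from untreated cells was 0.41 ± 0.54 in KO (adjusted p = 0.737), 0.67 ± 0.54 in HET (adjusted p = 0.566) and -0.11 ± 0.58 in WT (adjusted p = 0.933). Among the IL4 libraries, the deviations of Ccl17 and Ccl22 from their group means had a Pearson r of 0.685 over 15 libraries, given as a description across libraries.

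**Figure D2:**
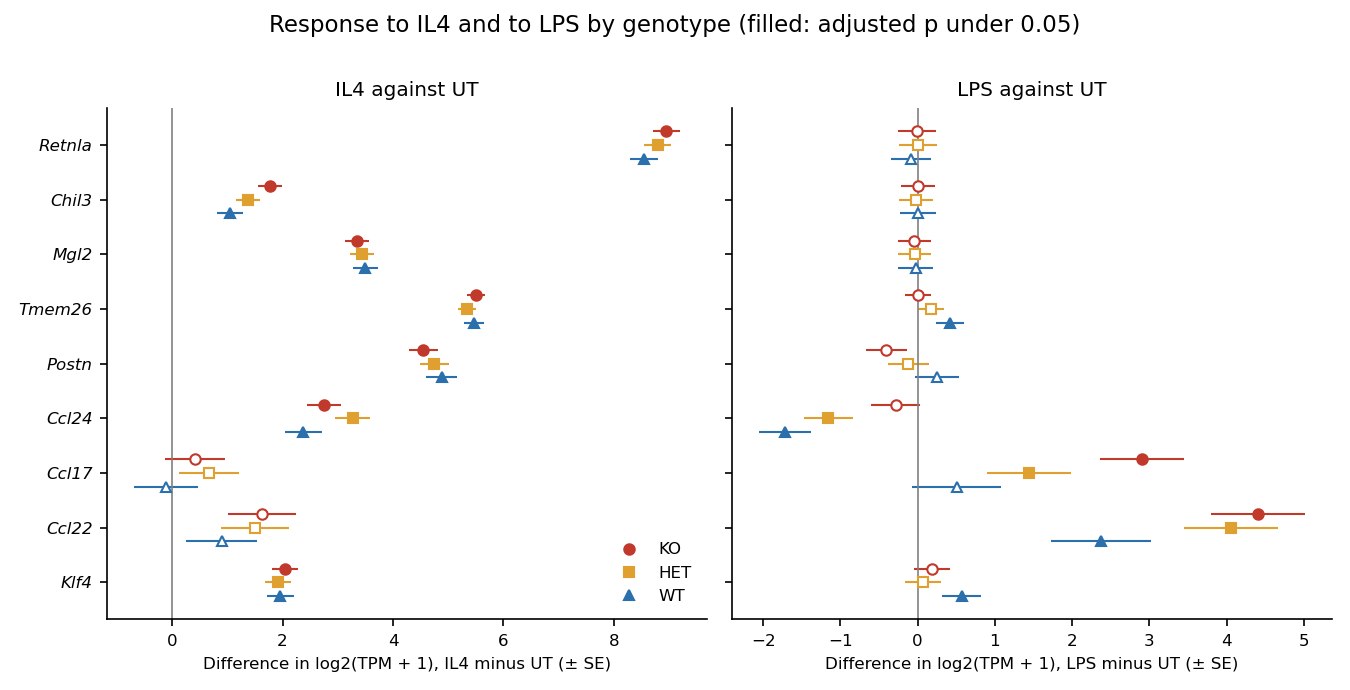
Differences of log2(TPM + 1) from untreated cells (± SE) for the 9 genes under IL4 and under LPS, by genotype, with filled points for adjusted p under 0.05. Retnla runs from 8.55 to 8.95 with IL4 and lies near 0 with LPS, whereas Ccl22 runs from 2.37 to 4.40 with LPS.

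In mean TPM, the order of the members with IL4 began with Retnla in every genotype, at 552 ± 246 TPM in KO, 466 ± 154 in HET and 463 ± 332 in WT (SD, n = 5 each). Tmem26 and Postn followed, at 62.2 ± 11.4 and 48.4 ± 24.1 TPM in KO and 52.9 ± 14.4 and 45.8 ± 9.91 TPM in WT, and these neighbours overlapped library by library. Ccl24 came next (26.9 ± 9.57 TPM in KO and 18.6 ± 5.09 TPM in WT). Klf4 and Mgl2 lay together, at 11.3 ± 2.78 and 11.2 ± 5.85 TPM in KO and 9.53 ± 3.92 and 11.0 ± 4.29 TPM in WT. Ccl22, Chil3 and Ccl17 closed the order in KO and WT.

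Over the 44 IL4, LPS and untreated libraries, the gene most like Retnla among 10866 candidates was Pdcd1lg2 (PD-L2), with a Pearson r of 0.995, and Pdcd1lg2 also led for Mgl2 (0.985), Tmem26 (0.989) and Postn (0.980). It had 12.2 TPM in KO, 11.4 in HET and 9.05 in WT with IL4, against means of at most 0.058 TPM untreated. The gene second to it for those 4 members was Ap2m1, an adaptor subunit of endocytosis, which was abundant in all groups and averaged 1018 TPM in KO, 1000.2 in HET and 975 in WT with IL4, against 392.1, 398 and 394 TPM untreated. Chil3 (0.913) was most like Rnase2a, a secreted ribonuclease gene at 18.6, 18.9 and 13.9 TPM with IL4 in KO, HET and WT and listed at 0 in untreated cells, and so was Klf4 (0.938). Ccl24 was most like Chst7 (0.949), a sulfotransferase gene, and Batf3 (0.947). Ccl22 was most like Alas1 (0.921) and Ccl17 most like Txnrd1 (0.811), both of which were highest with LPS in KO. These correlations describe libraries that share 3 treatments, so they follow the treatment means.

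Within the 15 IL4 libraries, the spread around the group means was shared by some pairs of members and not by others. The highest Pearson r for these deviations were 0.804 for Tmem26 and Klf4, 0.741 for Tmem26 and Ccl22, and 0.722 for Retnla and Mgl2. The lowest were -0.336 for Postn and Klf4, -0.143 for Postn and Ccl22, and -0.125 for Ccl24 and Klf4. WT replicate 2, the highest WT library for Retnla, was also the highest WT library for Mgl2, Tmem26, Klf4, Ccl24 and Chil3, but not for Postn or Ccl22.

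The genotype comparison under IL4 asks whether Tbk1 loss alters this program. In KO against WT, 0 of the 9 members were called (limma), where 0.044% of all genes were, and 1 (Chil3) had an unadjusted p under 0.05. Chil3 was 0.72 ± 0.22 higher in KO (adjusted p = 1), with overlapping libraries. That SE also draws on the LPS and untreated libraries, in which Chil3 was at or near 0, and so understates the spread with IL4. The median over the members was 0.38, and that over all genes -0.03. In HET against WT and in KO against HET, 0 were called and 0 had an unadjusted p under 0.05, with 0.0126% and 0.00629% of all genes called.

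The difference of the IL4 responses, KO minus WT, was tested directly and was not called for any member or any other gene (0% of genes called), with an adjusted p of 1 for each member. The 95% intervals of this log2 difference ran from -0.47 to 0.53 for Tmem26, from -0.32 to 1.12 for Retnla, from -0.77 to 0.48 for Mgl2, from -1.11 to 0.44 for Postn, from -0.61 to 0.77 for Klf4 and from -0.55 to 1.30 for Ccl24. For Chil3 the interval was 0.07 to 1.37, and 1 member, Chil3, had an unadjusted p under 0.05. The fit shares the spread of a gene over all groups, and Retnla, Chil3 and Mgl2 were at or near 0 without IL4. For these genes it understates the spread among IL4 libraries, so their intervals are too narrow, and that of Chil3 is not read as excluding 0. For Ccl22 (-1.07 to 2.53) and Ccl17 (-1.09 to 2.13) the intervals were wide. The unstimulated cultures likewise gave 0 calls for KO against WT (0.0314% of all genes), HET against WT (0.0126%) and KO against HET (0.00629%), with 0 members at an unadjusted p under 0.05.

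LPS gave a different picture of the chemokines. Ccl22 was higher with LPS than untreated in all 3 genotypes, Ccl17 in KO and HET, and Ccl24 was lower in HET and WT. Of all genes, 13.1% were higher in KO, 14.3% in HET and 13.9% in WT, and 56.5%, 59.7% and 61.9% were lower. With median-of-ratios scaling the split of all genes was even, at 29.4% higher and 29.1% lower in KO, 32.3% and 32.6% in HET and 31.6% and 32.3% in WT. Of the 9 members, 2 were higher in KO, 2 were higher and 1 lower in HET, and 3 were higher and 1 lower in WT. The members' median was 0 in KO, 0 in HET and 0.25 in WT. Retnla, Chil3, Mgl2 and Postn were not called in any genotype.

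Ccl22 had 2.65, 30.3, 9.91, 49.8 and 191 TPM with LPS in KO, 12.9, 18.3, 51.4, 13.5 and 15.8 TPM in HET, and 1.74, 3.12, 7.13, 4.18 and 15.2 TPM in WT. Every LPS library was above every untreated one of its genotype, and KO spanned the widest range, with replicate 5 far above the rest. The difference from untreated cells was 4.40 ± 0.61 in KO, 4.06 ± 0.61 in HET and 2.37 ± 0.65 in WT (adjusted p = 0.00127).

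Ccl17 had 0.572, 5.60, 1.74, 12.0 and 62.0 TPM with LPS in KO, 1.73, 1.18, 3.42, 1.96 and 2.30 TPM in HET, and 0, 0.269, 0.330, 0.857 and 1.66 TPM in WT. Its KO libraries followed the order of Ccl22, lowest in replicate 1 and highest in replicate 5. The difference from untreated cells was 2.90 ± 0.54 in KO, 1.45 ± 0.54 in HET (adjusted p = 0.0168) and 0.50 ± 0.58 in WT (adjusted p = 0.431).

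Ccl24 had 4.5, 3.47, 0.672, 1.94 and 1.96 TPM with LPS in KO, 0, 0.516, 0.332, 0.284 and 0.571 TPM in HET, and 0, 0.079, 0.288, 0.251 and 0 TPM in WT. The KO libraries lay above, within and below the untreated KO range, and those of HET and WT lay below the untreated range of their genotype. The difference from untreated cells was -0.28 ± 0.31 in KO (adjusted p = 0.425), -1.16 ± 0.31 in HET (adjusted p = 0.00125) and -1.72 ± 0.33 in WT (adjusted p = 1.92e-05). With median-of-ratios scaling, which removes the shift of the median gene, these were 0.10, -0.91 and -1.48, so the KO value changed sign while the HET and WT calls held, and with quantile normalization the HET call was lost (-0.74, adjusted p = 0.0590).

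The other calls with LPS, Tmem26 and Klf4 in WT, rested on low values. Tmem26 was 0.42 ± 0.18 higher with LPS in WT (adjusted p = 0.0325), at 0.593 TPM against 0.184 TPM untreated, and Klf4 0.57 ± 0.25 higher (adjusted p = 0.0365), at 2.87 TPM against 1.59 TPM. The Tmem26 call was lost with same-numbered cultures blocked within genotype (adjusted p = 0.0581), and both were lost without the filter on low values (adjusted p = 0.0563 and 0.0661). Scaling to the median gene raised the Klf4 difference in WT to 1.03 (adjusted p = 0.000817). Quantile normalization added calls for Klf4 in KO (0.71) and HET (0.70), Tmem26 in HET (0.56) and Postn in WT (0.74). In KO, by contrast, Postn was called as lower with LPS with a pseudocount of 0.1 (-1.07, adjusted p = 0.0357). The same call came without KO LPS replicate 2 (-0.64, adjusted p = 0.0294).

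IL4 against LPS set the treatments side by side. The same 7 members as against untreated cells were higher with IL4 in each genotype, where 54.3% of all genes in KO, 56.6% in HET and 57.7% in WT were higher. Ccl22 was lower with IL4 than with LPS in KO (-2.77 ± 0.61), HET (-2.56 ± 0.61) and WT (-1.47 ± 0.61, adjusted p = 0.0302), where 12.1%, 14.3% and 14.3% of all genes were lower. Scaled by median of ratios, 25.8%, 30.4% and 30.5% of all genes were higher and 27.2%, 31.1% and 30.5% lower in KO, HET and WT. The WT call was lost without the filter on low values (adjusted p = 0.0623) and without any one of 5 libraries, WT IL4 1, 3 or 4 or WT LPS 3 or 5, and without WT LPS 5 the difference was -1.11 (adjusted p = 0.117). Ccl17 was lower with IL4 in KO (-2.49 ± 0.54), and with a pseudocount of 0.1 also in HET (-2.42) and WT (-2.28). In WT it was also called in a fit of only the groups compared (-0.61, adjusted p = 0.0315).

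Under LPS, the members called between KO and WT were the same 3 chemokines. In KO against WT, 3 of 9 members were higher and 0 lower, where 14.4% of all genes were higher and 13.2% lower. The median over the members was 0.06, and that over all genes 0.01. Ccl24 was 1.54 ± 0.31 higher in KO (adjusted p = 0.000167) and its KO and WT libraries did not overlap. Ccl17 was 2.29 ± 0.54 higher (adjusted p = 0.00108) and Ccl22 2.12 ± 0.61 higher (adjusted p = 0.00661), each with overlapping libraries. KO replicate 1 lay within the WT range for both genes, and KO replicate 3 did so for Ccl22. Without KO LPS replicate 5, Ccl22 was 1.41 ± 0.55 higher and not called (adjusted p = 0.0568), and Ccl17 was 1.52 higher and still called (adjusted p = 0.0092). In a fit of the KO and WT LPS groups alone, which does not lend these groups the smaller spread of the other groups, Ccl17 (adjusted p = 0.0919) and Ccl22 (adjusted p = 0.155) were not called, and Ccl24 was.

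KO against HET, in which both genotypes carry Cre, gave 1 member, Ccl24, at 1.29 ± 0.31 higher in KO (adjusted p = 0.00163) with no overlap between libraries, where 12.5% of all genes were higher. Ccl17 was 1.30 ± 0.54 higher (adjusted p = 0.0815) and Ccl22 0.37 ± 0.61 higher (adjusted p = 0.774), neither called. Ccl17 was called without KO LPS replicate 1 (1.86, adjusted p = 0.00613) or 3 (1.66, adjusted p = 0.0265). HET against WT gave 0 calls (limma), where 0.0126% of genes were called, and 1 member, Ccl22, at an unadjusted p under 0.05 (1.76 ± 0.61, adjusted p = 0.623). The HET libraries of Ccl22 lay between or among those of KO and WT.

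The response to LPS itself, taken as the difference from untreated cells, was larger in KO than in WT by 2.40 ± 0.79 for Ccl17 (adjusted p = 0.0318) and by 1.43 ± 0.46 for Ccl24 (adjusted p = 0.0253), which makes 2 of 9 members where 9.36% of all genes were higher and 7.03% lower (7.18% and 10.4% with median-of-ratios scaling, under which both members were still called). Ccl22 gave 2.03 ± 0.89 (adjusted p = 0.122), and 2.32 ± 0.83 (adjusted p = 0.0427) with same-numbered cultures blocked within genotype. The Ccl17 call was lost without WT LPS 1 or 2, WT UT 4, KO LPS 4 or KO LPS 5 (1.63 without KO LPS 5, adjusted p = 0.0771) and in a fit of only the groups compared (adjusted p = 0.103). The Ccl24 call was lost without KO LPS 1 or 2 or WT UT 2 or 3, with adjusted p-values from 0.0541 to 0.0786. Without the filter on low values neither was called (adjusted p = 0.0662 for Ccl17 and 0.0533 for Ccl24). With a pseudocount of 0.1 the response of Tmem26 was called as smaller in KO (-1.28, adjusted p = 0.0457). KO minus HET and HET minus WT gave 0 calls among the members (limma), with 0 at an unadjusted p under 0.05, where 13.8% and 0% of all genes were called. Of the calls over all genes for KO minus HET, 55.6% were higher in KO, and 44.7% with median-of-ratios scaling.

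Other cell types were followed beside these values. The summed level of 8 markers of border macrophages was 939 to 1492 TPM in KO and 468 to 562 TPM in WT under LPS. That sum was carried by Pf4, at 1006 TPM in KO and 137 TPM in WT. Of the 6 tested, Pf4 (2.93) and Mrc1 (1.79) were higher in KO, and Ms4a7 (-1.15) and Folr2 (-0.69) were lower. Cd163 and Lyve1 of the same list did not exceed 0.123 and 0.472 TPM in any KO library with LPS. Of 10 microglial markers, 4 were higher in KO and 0 lower. Markers of monocytes and granulocytes, of which 4 were measured, summed to 58.3 to 112 TPM in KO, 45.0 to 102 TPM in HET and 69.1 to 105 TPM in WT with LPS, against 1.75 to 3.89, 1.92 to 4.04 and 1.83 to 5.4 TPM untreated. Among them Ly6c2 with LPS was higher in KO cultures than in WT cultures (3.23 ± 0.26), at 16.4 TPM in KO, 1.48 TPM in HET and 0.729 TPM in WT, and its LPS response was larger in KO than in WT (3.32 ± 0.37), whereas S100a8 and Ccr2 were not called between KO and WT. Dendritic cells, a known source of Ccl17 and Ccl22, had 6 markers that summed to 1.04 to 1.82 TPM in KO and 1.03 to 1.63 TPM in WT with LPS, and Flt3 was listed at 0 in all of those libraries. Their part in the chemokine differences was not tested.

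**Figure D3:**
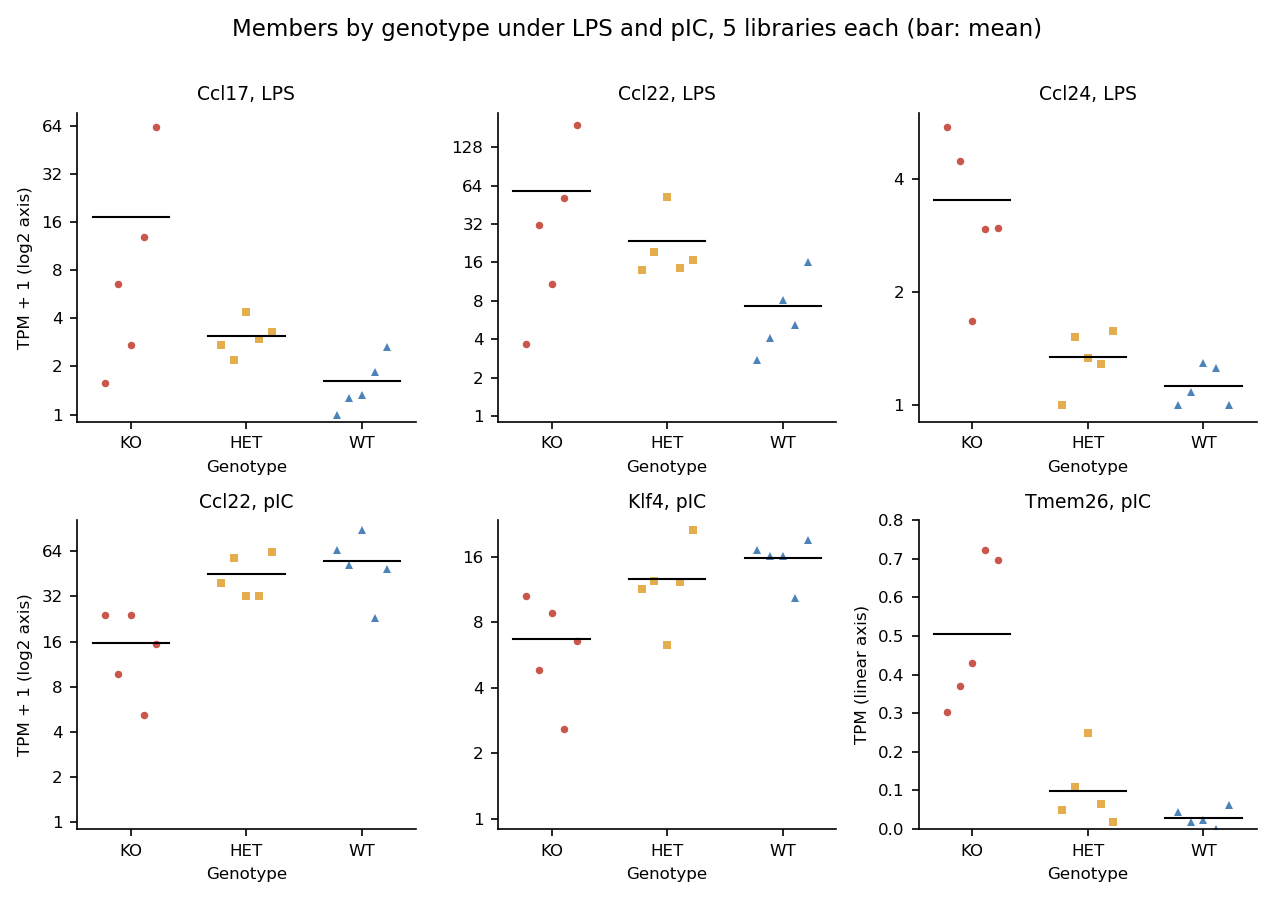
TPM + 1 on a log2 axis (TPM on a linear axis for Tmem26) by genotype (KO, HET, WT), for Ccl17, Ccl22 and Ccl24 under LPS and for Ccl22, Klf4 and Tmem26 under pIC, with 1 point per library and a bar at each group mean. Under LPS, Ccl22 runs from 2.655 to 191 TPM in KO and from 1.74 to 15.2 TPM in WT. Under pIC, KO lies at 4.16 to 23.1 TPM and WT at 21.9 to 88.3 TPM. The KO and WT ranges overlap under both treatments.

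Under pIC, 3 of the 9 members, Ccl22, Klf4 and Postn, passed the filter on low values and were tested. In KO against WT 2 of these were lower, where 8.11% of all 13919 genes tested were lower, and 0 were higher (3.4% of all genes). The split of all genes turned round under other scalings, to 3.38% lower and 5.2% higher with median-of-ratios scaling and 4.04% lower and 4.7% higher with quantile normalization, while the values of Ccl22 (-1.80 and -1.82) and Klf4 (-1.27 and -1.22) moved little. The chemokine Ccl22 had 23.0, 8.78, 23.1, 4.16 and 14.4 TPM in KO, 38.6, 57.1, 31.2, 31.1 and 61.8 TPM in HET, and 63.7, 50.5, 88.3, 21.9 and 47.8 TPM in WT. KO libraries all lay below the HET libraries, and only WT replicate 4 fell within the KO range. Ccl22 was lower in KO than in WT by -1.91 ± 0.41 (adjusted p = 0.00789) and lower than in HET by -1.67 ± 0.41 (adjusted p = 0.0282), where 3.6% of all genes were lower in KO than in HET and 1.65% higher (1.55% and 2.08% with median-of-ratios scaling). The KO against HET call was lost without HET pIC 1, 2 or 5 or KO pIC 2 (adjusted p from 0.0537 to 0.0739), without the filter on low values (adjusted p = 0.0676) and with quantile normalization (adjusted p = 0.0518).

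Klf4 had 9.51, 3.83, 7.82, 1.58 and 5.57 TPM with pIC in KO, 10.3, 11.3, 5.29, 11.2 and 20.1 TPM in HET, and 16.1, 15.1, 15.1, 9.27 and 18.1 TPM in WT. KO replicate 1 and WT replicate 4 touched, and the other KO libraries were below all WT libraries. It was lower in KO than in WT by -1.37 ± 0.35 (adjusted p = 0.0195, and 0.0574 with quantile normalization), and -0.98 ± 0.35 against HET was not called (adjusted p = 0.12). Postn had 2.94, 4.18, 1.27, 0.983 and 1.77 TPM in KO and 0.856 to 1.24 TPM in WT, a difference of 0.58 ± 0.22 that was not called (adjusted p = 0.104) and that was called without KO pIC 4 (0.73, adjusted p = 0.0396). HET against WT gave 0 calls (limma), where 0% of all genes were called, and 0 members at an unadjusted p under 0.05.

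Tmem26 was under 1 TPM in every pIC library and was not tested. It had 0.302, 0.371, 0.430, 0.723 and 0.698 TPM in KO, 0.050, 0.108, 0.248, 0.065 and 0.019 TPM in HET, and 0.044, 0.018, 0.024, 0 and 0.063 TPM in WT, so all KO libraries lay above those of HET and WT. The share of all genes that separate in this way at such low values was not counted, so no genotype effect is read from it. The remaining 5 members, Retnla, Chil3, Mgl2, Ccl17 and Ccl24, did not exceed 1.55 TPM in any pIC library. Dendritic cell markers summed to 2.91 to 17.5 TPM in KO, 10.5 to 20.6 in HET and 6.86 to 19.8 in WT with pIC, mostly from Ccr7 (7.02 TPM in KO, 13.4 in HET and 10.9 in WT). Ccr7 was not called between KO and WT (-0.81, adjusted p = 0.296). Monocyte and granulocyte markers summed to 8.73 to 26.9 TPM in KO, 6.04 to 24.2 in HET and 3.51 to 11.0 in WT. The part of these cells in the Ccl22 and Klf4 differences was not tested.

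Ccl22 was thus called as higher in KO than in WT with LPS and as lower with pIC. The LPS call was lost without KO LPS replicate 5 (adjusted p = 0.0568) and in a fit of only those groups (adjusted p = 0.155). With LPS, KO was not called against HET. The LPS and pIC differences come from separate tables, so no test was made between them. Mean Ccl22 was 56.7 ± 77.2 TPM with LPS and 14.7 ± 8.45 TPM with pIC in KO, 22.4 ± 16.4 and 44.0 ± 14.6 TPM in HET, and 6.28 ± 5.38 and 54.4 ± 24.2 TPM in WT (SD, n = 5 each), levels set across tables as a description. Ccl17 stood apart from its neighbour here. With pIC it was listed at 0 in all but 1 library (HET replicate 2, 0.284 TPM).

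The steps before the members were read from a list of 14 IL4 receptor and signalling genes. With IL4, 4 were higher and 2 lower in KO, 3 and 3 in HET, and 2 and 2 in WT, with medians of 0.00418, -0.07 and -0.02. The feedback inhibitor Socs1 was higher by 3.01 ± 0.20 in KO, 2.82 ± 0.20 in HET and 2.57 ± 0.21 in WT, at 9.06 TPM with IL4 against 0.247 TPM untreated in KO. The receptor chain Il2rg was higher by 1.28, 1.29 and 1.22, whereas the chains Il13ra1 (-1.24, -1.25 and -1.18) and Il4ra (-0.47, -0.58 and -0.58) were lower. Cish, another inhibitor of the family, was higher in KO (1.11 ± 0.35, adjusted p = 0.0364). Stat6 itself was not called, at 73.8 TPM with IL4 and 72.3 TPM untreated in KO and 68.7 and 71.1 TPM in WT.

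Of 12 transcription and chromatin factors known in alternative activation, 8 were higher with IL4 in KO and 7 in HET and in WT, with 0 lower and medians of 1.45, 1.47 and 1.25. Egr2 was the largest, at 69.9 TPM with IL4 against 4.27 TPM untreated in KO and 55.9 against 3.05 TPM in WT (3.86 ± 0.34 and 3.79 ± 0.36). Batf3 was higher by 2.57 in KO and 2.36 in WT, Bhlhe40 by 1.71 and 1.77, Irf4 by 1.71 in KO, and the nuclear receptor Pparg by 1.59 in WT. Of 17 tested genes of a list of 22 other alternative activation genes, 13 were higher in each genotype and Ch25h was lower in KO and HET, with medians of 1.31 in KO, 1.55 in HET and 1.26 in WT. Arg1 (arginase), which competes with nitric oxide synthesis for arginine, was higher by 10.06 ± 0.35 in KO, 10.12 ± 0.35 in HET and 10.09 ± 0.37 in WT, at 1489 TPM with IL4 against 0.374 TPM untreated in KO and 1320 against 0.202 TPM in WT. It was thus more abundant than Retnla in mean TPM. The arginine transporter Slc7a2 was higher by 3.90 and 3.79 in KO and WT, Pdcd1lg2 by 3.62 and 3.25, Atp6v0d2 by 3.07 and 3.43, and the mannose receptor Mrc1 by 2.49 and 2.25.

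**Figure D4:**
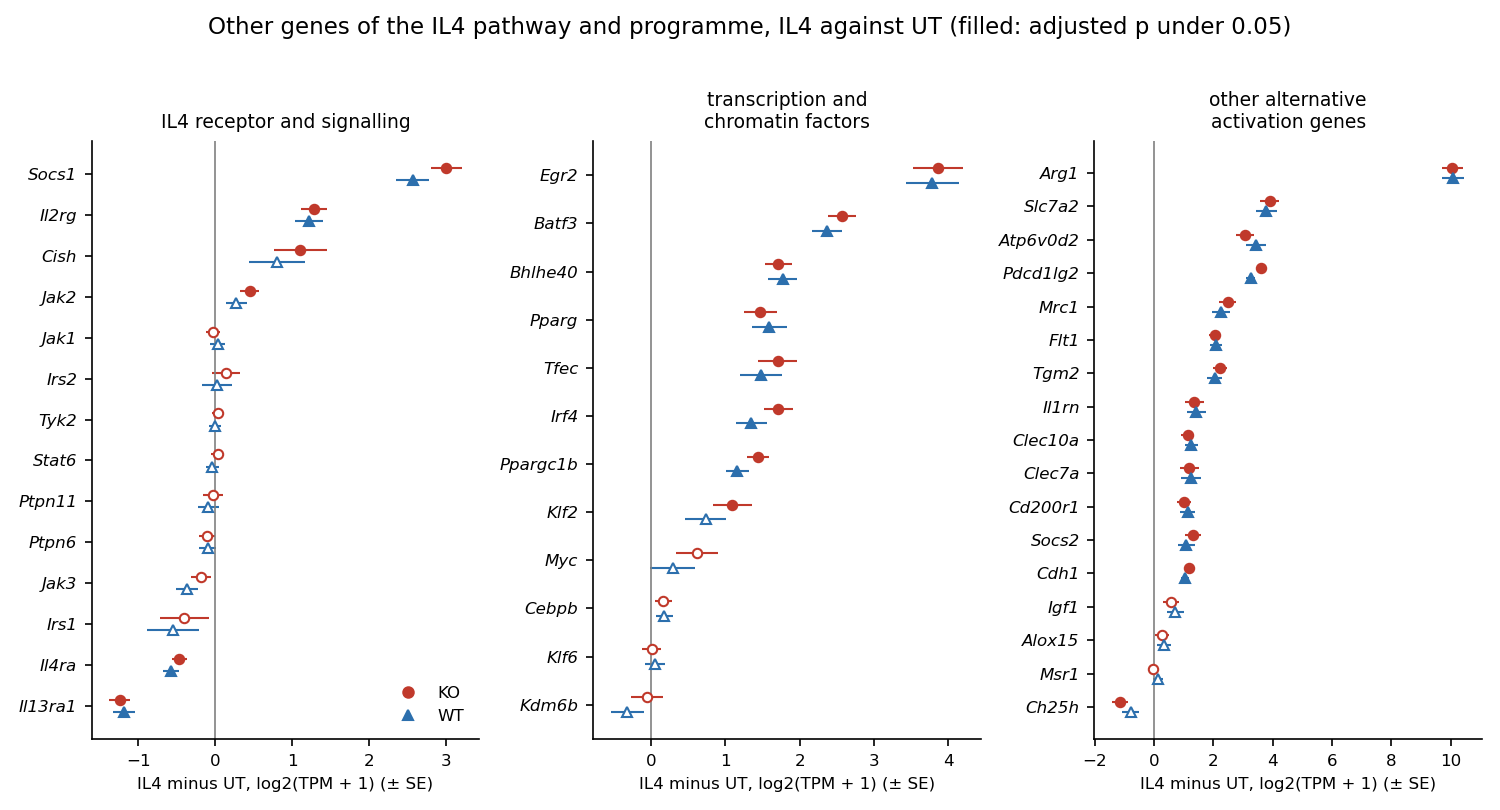
Differences of log2(TPM + 1) between IL4 and untreated cells (± SE) in KO and WT for the genes of the 3 lists, receptor and signalling genes, transcription and chromatin factors, and other alternative activation genes, with filled points for adjusted p under 0.05. KO and WT points lie close together throughout, as for Arg1 (10.06 and 10.09) and Egr2 (3.86 and 3.79).

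Between KO and WT under IL4, 0 genes of the 3 lists were called (limma), where 0.044% of all genes were. At an unadjusted p under 0.05 there were 0 receptor and signalling genes, 1 transcription factor (Cebpb) and 1 other gene (Pdcd1lg2). Under LPS, KO differed from WT in both directions, where 14.4% of all genes were higher in KO and 13.2% lower. Of the factors, 5 were higher and 2 lower in KO, with Egr2 (2.45), Tfec (1.46) and Ppargc1b (1.31) higher and Klf6 (-1.62) lower. Of the other alternative activation genes, 5 were higher and 6 lower. Cd200r1 (1.95) was higher, while Il1rn (-2.45), Ch25h (-2.21) and Arg1 (-1.88) were lower, and Arg1 had 19.8 TPM in KO and 77.5 TPM in WT. Of the receptor and signalling genes, 2 were higher, Socs1 (0.69) and Il2rg (0.49), and 5 lower. Medians over these lists were 0.32, 0.02 and -0.08, and that over all genes was 0.01. With pIC, 6 of 12 tested other alternative activation genes were higher in KO than in WT and 0 lower, led by the receptor Flt1 (1.10) and the growth factor Igf1 (0.87), 1 of 11 factors was higher (Egr2, 1.21), and Il4ra was lower (-0.56) as 1 of 13 signalling genes. Of all genes, 3.4% were higher in KO and 8.11% lower with pIC (5.2% and 3.38% with median-of-ratios scaling).

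The receptors through which the secreted members act were read as a last list. Ccr4, the receptor of Ccl17 and Ccl22, was listed at 0 in all untreated libraries and reached 2.41 TPM in 1 HET library with LPS, and Ccr8 did not exceed 0.386 TPM, so neither was tested. Ccr3, which Ccl24 binds, was higher with IL4 in KO (0.60) and HET (0.65), at 1.19 TPM in KO. Itgb3, an integrin chain of periostin receptors, was higher with IL4 by 1.91 in KO, 1.77 in HET and 1.81 in WT. The cytokine gene Il4 was listed at 0 in every library except 1 untreated WT library (0.312 TPM).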

How the data were processed

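Per the labels' protocols, total RNA was column-purified and 300 ng per library was prepared with an mRNA kit. FastQC, Trimmomatic, DRAGEN, Picard and mm10 appear in the submitters' processing notes, which give no version here. The authors deposited TPM values per gene, in one table for the 44 IL4, LPS and untreated libraries and another for the 15 pIC libraries. TPM sums to about the same total in every library (999806 to 999936 here), so depth is unknown, and abundant genes that rise lower the values of all others. Which strand was counted is unstated, so overlapping antisense genes cannot be told apart.

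The 9 members and all gene lists were chosen with earlier results of these data known. Other genes named were the called genes of a list with the largest differences, up to 4 per list and comparison, Tbk1, Arg1, Mrc1, near copies of members, and for each member the 2 genes with the highest Pearson r over 44 libraries, taken from genes whose mean reached 5 TPM in some group. A few others (Stat6, Il4ra, Pdcd1lg2, Pecam1 and single markers) were named after their values were seen. Some genes of the lists were not analysed here. Group membership followed the labels, and no columns were identical (highest Pearson r between libraries 0.993).

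Values were analysed as log2(TPM + 1), which understates the change of low genes. Genes that reached 1 TPM in 4 or more libraries of their table entered limma 3.58.1 (lmFit, contrasts, eBayes with trend, in R 4.3.3). The fit had a mean per group and, for each gene, one spread shared by all groups of its table. It covered 15908 and 13919 genes in 27 comparisons. Benjamini-Hochberg adjustment ran over all genes tested, every adjusted p comes from this test, and 0.05 was the threshold. No test was made between the tables. The procedure was tested on simulated data. Sequences were handled with Python 3.11.15, pandas 2.3.3 and Biopython 1.88, and figures with matplotlib 3.10.9.

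Same-numbered libraries were checked for pairing by the correlation of their deviations from group means, since the labels do not say that a number marks a culture. Every pair was over 0.1 for untreated with LPS and with IL4 in WT (lowest 0.117 and 0.191) and in KO (0.13 and 0.173) and for IL4 with LPS in WT (0.128), and for untreated HET with untreated WT (0.121). It was not for IL4 with LPS in KO, for HET treatments, for the other genotype pairs or for pIC. Alternatives were a pseudocount of 0.1, no filter, median-of-ratios scaling, quantile normalization, only the groups compared, a replicate block, leaving out each replicate and, added after seeing the data, a block within genotype.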

Additional observations from a re-analysis of the deposited data

Results flagged for a closer look

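On the log2(TPM + 1) scale, 8 of 57 combinations of a member and a group had 1 library that stood apart from the other 4 by Dixon's criterion, where chance gives about 1 in 20. With IL4, Mgl2 was low in HET replicate 3 (5.518 TPM, the others 11.1 to 12.8 TPM) and high in WT replicate 2 (18.538 TPM, the others 8.11 to 10.3 TPM), and Ccl17 was high in KO replicate 5 (2.245 TPM, the others 0 to 0.289 TPM). With LPS, Tmem26 was high in HET replicate 5 (1.528 TPM, the others 0.202 to 0.428 TPM) and Ccl22 in HET replicate 3 (51.399 TPM, the others 12.9 to 18.3 TPM). With pIC, Ccl24 was high in KO replicate 2 (1.415 TPM, the others 0.285 to 0.459 TPM) and Klf4 low in WT replicate 4 (9.271 TPM, the others 15.1 to 18.1 TPM). Untreated, Postn was high in KO replicate 2 (3.197 TPM, the others 0.392 to 0.846 TPM).

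The response to LPS differed between KO and WT in a direct test for Ccl17, by 2.40 on the log2 scale, and for Ccl24, by 1.43, with the limits given beside those results.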

How the results depend on the processing

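No member's difference changed sign while called, under any alternative run. The 7 calls of IL4 against UT stayed at 7 in HET and WT and at 7 to 8 in KO when each replicate was left out. With each replicate left out, LPS against UT gave 2 to 3 calls in KO, 3 in HET and 2 to 4 in WT, and IL4 against LPS 9 in KO, 8 to 9 in HET and 7 to 8 in WT. Under LPS, KO against WT gave 2 to 3 and KO against HET 1 to 2, and the LPS response gave 1 to 2 for KO minus WT and 0 to 1 for KO minus HET. Under pIC, KO against WT gave 2 to 3 and KO against HET 0 to 1, and the remaining counts stayed at 0.

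With a pseudocount of 0.1 the LPS response of KO minus HET gave 1 call (Ccl24). Without the filter, LPS against UT in WT gave 2 and the LPS response of KO minus WT 0. Only the groups compared gave 1 for KO against WT under LPS and 1 for the LPS response of KO minus WT. That fit also added Ccl22 for IL4 against UT in KO and Ccl17 for IL4 against LPS in WT. Quantile normalization gave 1 for KO against WT and 0 for KO against HET under pIC. The causes were not tested.

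With a replicate block over all genotypes, KO against HET under LPS gave 2 calls (Ccl17 added, adjusted p = 0.0384), although the numbers do not pair these groups. That block also added Ccl22 for IL4 against UT in KO (adjusted p = 0.0363) and for the LPS response of KO minus WT (2.27, adjusted p = 0.0324), and it changed no other call. Precision is limited by unknown depth and by 4 or 5 cultures a group.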

Other observations

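With LPS, 69.6% of all genes tested were called against untreated cells in KO and 75.8% in WT. By direction, 13.1% were higher and 56.5% lower in KO, and 13.9% higher and 61.9% lower in WT. With median-of-ratios scaling these shares were 29.4% and 29.1% in KO and 31.6% and 32.3% in WT. The totals called in the lists that follow are near the background, while their splits hold more higher genes than the unscaled background. Of the 14 receptor and signalling genes, 8 were higher and 2 lower with LPS in KO and 10 higher and 2 lower in WT. The receptor chain Il4ra, lower with IL4, was higher with LPS by 1.19 ± 0.10 in KO and 1.27 ± 0.11 in WT, at 87.2 TPM against 37.8 TPM untreated in KO. Il2rg was higher by 4.24 and 4.02 and the inhibitor Socs1 by 4.98 and 4.11 in KO and WT. Of the 17 tested other alternative activation genes, 6 were higher and 7 lower in KO, and 6 higher and 8 lower in WT. Slc7a2 (6.11 in KO and 6.93 in WT), Il1rn (5.46 and 8.39) and Arg1 (3.77 and 5.86) were higher with LPS, whereas Mrc1 (-1.76 and -3.89), Igf1 (-3.03 and -3.26) and Atp6v0d2 (-2.58 and -3.67) were lower. Among the factors, Cebpb was higher (2.25 and 2.55) and Pparg lower (-2.79 and -2.58). Egr2 was higher with LPS in KO (1.20 ± 0.34, adjusted p = 0.002) and lower in WT (-0.99 ± 0.36, adjusted p = 0.0124), and Klf6 was lower in KO (-0.65) and higher in WT (1.12). All these adjusted p-values are from limma over all genes tested, and the median of all genes shifted by -0.44 in KO and -0.59 in WT.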
